A study of Sus scrofa with 13 samples.

Results

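The enzymes of glycolysis were followed through pig (Sus scrofa) preimplantation development with 10 genes chosen by name: HK1, HK2, GPI, PFKP, ALDOA, TPI1, PGK1, ENO1, PKM and LDHA. All 10 were found, among 28232 genes in the table. Messenger RNA was sequenced in 13 libraries, each from a pool of embryos. Hatched blastocysts, which have left the zona pellucida, came from in vitro fertilisation (IVF, 3 libraries) and from development in vivo (2 libraries). Blastocysts, the stage with a fluid-filled cavity, came from IVF (3 libraries) and from development in vivo (2 libraries). The 4-cell embryos were IVF embryos (3 libraries), so the comparison of 4-cell embryos with later stages stayed within IVF. No group carried a transgene, a mutation or a drug as far as the labels say. The labels do not give the number of embryos in a pool, the breed, or the animals and fertilisation rounds behind each library. With separate animals or cultures not stated, p-values cover only library-to-library spread, part of which can be technical. Embryo age, the animals, the day and any sequencing batch cannot be told apart from the origin of the embryos (IVF or in vivo). Nor can they be told apart from the stage, hatching included.

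Glycolysis splits glucose into pyruvate in the cytosol. Hexokinases (HK1, HK2) trap glucose as glucose 6-phosphate, and the phosphofructokinase PFKP catalyses the step at which the pathway is most strongly regulated. Aldolase (ALDOA) cuts the sugar, the enzymes from triosephosphate isomerase (TPI1) to pyruvate kinase (PKM) recover ATP, and lactate dehydrogenase A (LDHA) turns pyruvate into lactate. Embryos of some mammals rely mainly on pyruvate during cleavage and take up more glucose as the blastocyst forms. Fuel use was not measured in these pig embryos. In bulk libraries, fewer cells of a type and less RNA per cell cannot be told apart.

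Libraries held 33259311 to 39273867 counts, so 3 counts correspond to at most 0.0902 CPM. Levels are CPM, a gene's counts scaled by the total of the library so that all libraries sum alike. Beside a level ± is the SD between libraries, and beside a log2 fold change it is the SE. For in vivo hatched blastocysts, 1 count column had no replicate label and is named the unnumbered library. Of the 4-cell libraries, library 1 stood apart, with a Pearson correlation of log2 CPM across genes of 0.725 and 0.730 with the other two, against 0.874 between those. Oocyte and early embryo markers (9 of 10 in the table) summed to 16146 to 22942 CPM in 4-cell libraries and to 0.362 to 18.8 CPM in the later libraries. Trophectoderm markers summed to 20773 to 38337 CPM in the blastocyst and hatched libraries, against 99.7 to 859 CPM in 4-cell libraries. Markers of cumulus and granulosa cells reached at most 175 CPM in a library. Those of the oviduct and uterine epithelium reached 30.4 CPM, of stroma and vessels 54.5 CPM, of blood 14.1 CPM and of sperm 7.14 CPM.

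The 10 enzymes together were a small part of the messenger RNA at the 4-cell stage and a larger part later. Their counts made up 0.0560%, 0.0520% and 0.0566% of all counts in the 4-cell libraries. In IVF blastocysts they made up 0.355%, 0.338% and 0.400%, and in IVF hatched blastocysts 0.435%, 0.489% and 0.392%. In vivo blastocysts had 0.282% and 0.337%, and in vivo hatched blastocysts 0.430% (unnumbered library) and 0.369%. The ranges of the later groups touched or lay close together, and every later library stood above every 4-cell library. ENO1, the enolase, was the largest part of this sum in every later library, with 28.9% to 49.2% of it, against 1.60% to 6.16% in 4-cell libraries.

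**Figure D1:**
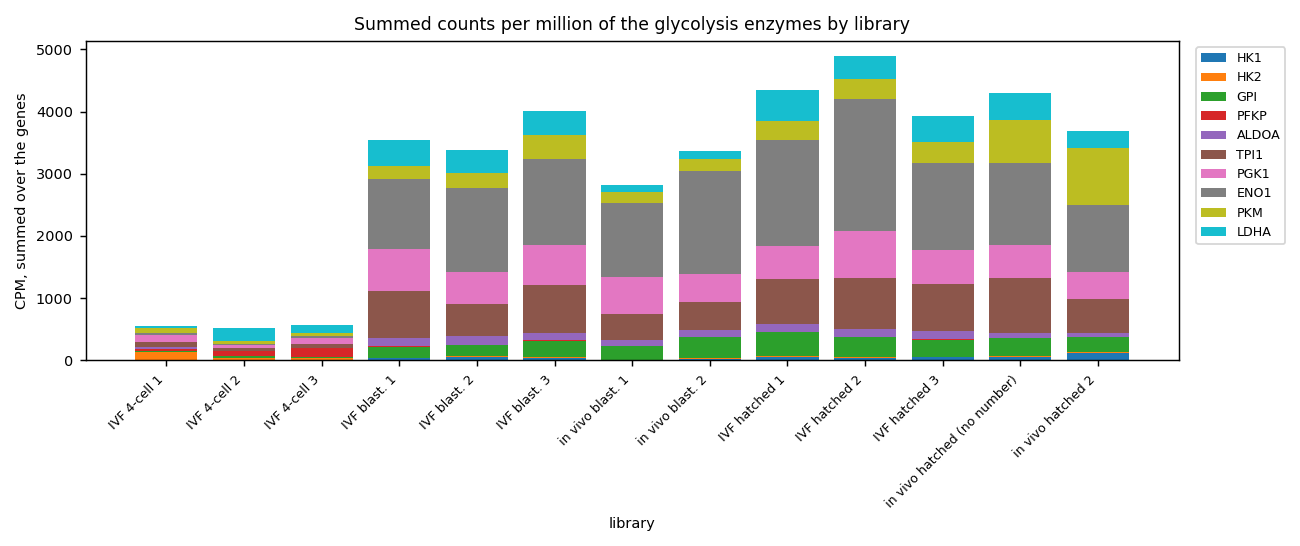
CPM (counts scaled to library total) of the 10 enzymes, stacked for each of the 13 libraries. The 3 IVF 4-cell libraries summed to 520 to 566 CPM, and the other libraries to 2818 to 4895 CPM, with ENO1 (grey) as the largest block in each of those.

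IVF blastocysts and IVF hatched blastocysts differed from 4-cell embryos in all 10 enzymes. In each of these comparisons 8 rose (HK1, GPI, ALDOA, TPI1, PGK1, ENO1, PKM and LDHA) and 2 fell (HK2 and PFKP), by edgeR's quasi-likelihood test with adjusted p under 0.05. Calls were common among all 16312 genes tested. In blastocysts 56.3% of genes were called against 4-cell embryos (25.7% higher and 30.6% lower), and in hatched blastocysts 56.6% (25.7% higher and 30.9% lower). The ranges of the libraries were apart for all 10 enzymes in both comparisons, as they were for 65.8% of all genes in blastocysts and 66% in hatched blastocysts. The median log2 fold change of the 10 was 3.34 in blastocysts and 3.50 in hatched blastocysts, against −0.23 and −0.24 over all genes tested. Scaling to library size alone moved those medians of all genes to −0.50 and −0.55, and the 10 enzymes kept their directions.

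ENO1 (gene 100738870; chromosome 6, bases 69385879 to 69401664 of Sscrofa11.1) had the largest fold of the 10. The 4-cell libraries held 34.5, 8.33 and 31.7 CPM of ENO1, the IVF blastocyst libraries 1117, 1355 and 1383 CPM, and the IVF hatched libraries 1696, 2123 and 1400 CPM. The log2 fold change over 4-cell embryos was 5.93 ± 0.61 in blastocysts (adjusted p = 0.000116, edgeR) and 6.42 ± 0.62 in hatched blastocysts (adjusted p = 8.62e-05). ALDOA (gene 110260081; chromosome 3, bases 18246036 to 18260167) stood at 19.2, 3.28 and 3.41 CPM in 4-cell embryos, 127, 138 and 111 CPM in IVF blastocysts, and 128, 124 and 126 CPM in IVF hatched blastocysts. Its log2 fold change in blastocysts was 4.24 ± 0.64 (adjusted p = 0.00074, edgeR), and it was 5.47 without 4-cell library 1, the one with the most ALDOA. Neither gene's 4-cell range reached its later ranges.

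The other enzymes of the middle and lower pathway moved in the same direction. TPI1 averaged 63.1 ± 19.6 CPM in 4-cell embryos, 686 ± 141 CPM in IVF blastocysts and 769 ± 54.2 CPM in IVF hatched blastocysts (SD, n = 3 each). PGK1, the X-linked phosphoglycerate kinase, averaged 88.0 ± 27.0, 610 ± 93.3 and 606 ± 122 CPM at the same stages. For GPI, which converts glucose 6-phosphate to fructose 6-phosphate, the means were 18.6 ± 6.89, 205 ± 56.5 and 329 ± 56.8 CPM. The log2 fold changes of blastocysts over 4-cell embryos were 3.70 ± 0.34 for TPI1, 3.04 ± 0.35 for PGK1 and 3.64 ± 0.46 for GPI, with adjusted p between 6.68e-05 and 0.000324 (edgeR). PKM, the last ATP-yielding step, had 50.3 to 85.6 CPM at the 4-cell stage. Its log2 fold change was 2.47 ± 0.32 in blastocysts (adjusted p = 0.000362) and 2.71 ± 0.32 in hatched blastocysts (adjusted p = 0.000237).

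LDHA (gene 407245; chromosome 2, bases 40814163 to 40827284) had the smallest rise, and its 4-cell libraries were far apart. They held 35.9, 206 and 124 CPM, against 420, 369 and 376 CPM in IVF blastocysts and 496, 368 and 416 CPM in IVF hatched blastocysts. The log2 fold change over 4-cell embryos was 1.86 ± 0.57 in blastocysts (adjusted p = 0.0215, edgeR) and 2.03 ± 0.58 in hatched blastocysts (adjusted p = 0.0147). The blastocyst call was lost without IVF blastocyst library 1 (adjusted p = 0.0549) and when only those 2 groups were fitted (adjusted p = 0.0542). Without 4-cell library 2 the log2 fold changes were 2.48 in blastocysts and 2.65 in hatched blastocysts.

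The hexokinases went opposite ways. HK1 (gene 100152344; chromosome 14, bases 72383328 to 72460927), the form found in most tissues, had no count in 4-cell library 1, 3.82 CPM in library 2 and 0.119 CPM in library 3. In IVF blastocysts it had 35.1, 58.9 and 35.0 CPM, and in IVF hatched blastocysts 59.9, 42.2 and 46.3 CPM. A single 4-cell library thus held nearly all HK1 counts of its group. The log2 fold change over 4-cell embryos was 5.28 ± 1.52 in blastocysts (adjusted p = 0.0159, edgeR) and 5.52 ± 1.54 in hatched blastocysts (adjusted p = 0.0136), and 9.67 and 9.91 without 4-cell library 2. HK2 (gene 494561; chromosome 3, bases 68155656 to 68231187), the form typical of muscle and of dividing cells, had 139, 41.0 and 32.8 CPM in 4-cell embryos. It had 9.17, 11.8 and 13.4 CPM in IVF blastocysts and 8.84, 6.57 and 11.2 CPM in IVF hatched blastocysts. HK2 fell by 2.28 ± 0.51 on the log2 scale in blastocysts (adjusted p = 0.00505) and by 2.61 ± 0.52 in hatched blastocysts (adjusted p = 0.00281). Without 4-cell library 1, where HK2 was highest, the log2 fold changes were −1.43 and −1.77.

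PFKP (gene 100521394; chromosome 10, bases 67022652 to 67082336), the platelet-type phosphofructokinase, had 38.0, 85.2 and 143 CPM in 4-cell embryos. In IVF blastocysts it had 4.99, 12.3 and 4.70 CPM, and in IVF hatched blastocysts 6.71, 6.39 and 9.96 CPM. It fell by 3.45 ± 0.68 on the log2 scale in blastocysts (adjusted p = 0.00269, edgeR) and by 3.35 ± 0.67 in hatched blastocysts (adjusted p = 0.00301). Without 4-cell library 3 the log2 fold changes were −2.73 and −2.63. For HK2 and PFKP, every 4-cell library lay above every later library, those from in vivo embryos included.

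**Figure D2:**
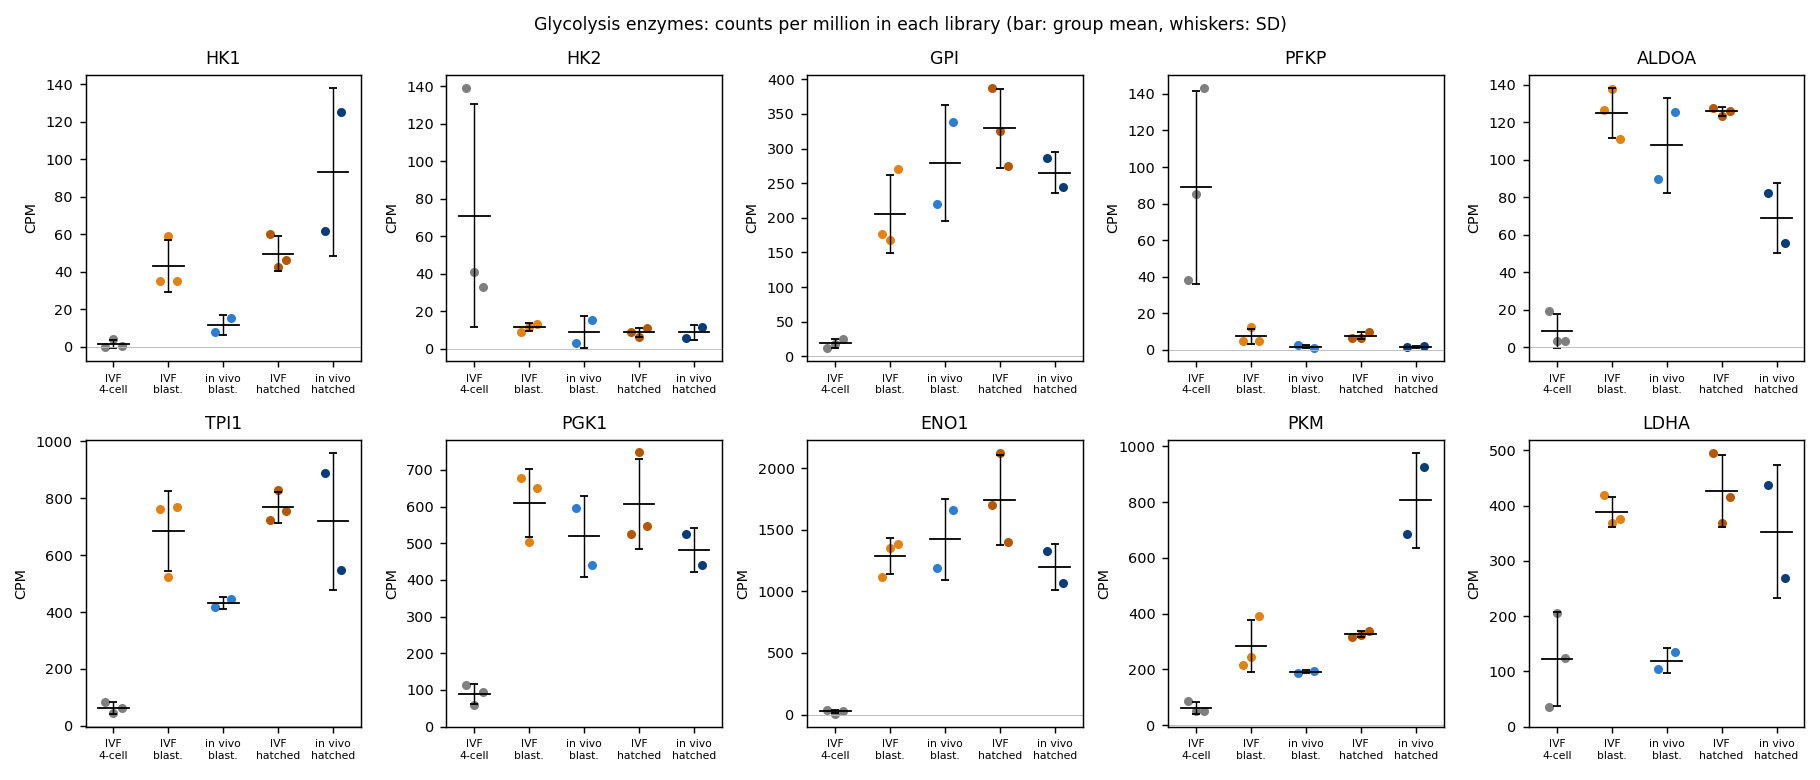
CPM of each of the 10 enzymes in every library (points) by group, with the group mean (bar) and SD (whiskers); n = 3 for each IVF group and n = 2 for each in vivo group. HK2 and PFKP are highest in 4-cell embryos, and HK1 and PKM are highest in in vivo hatched blastocysts (93.2 and 806 CPM on average).

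The make-up of the isozyme families also differed between stages, here as shares of the summed FPKM, the authors' values per gene length. For in vivo hatched blastocysts only library 2 has FPKM used here, so its shares are single values. HK1 made up 2.57% ± 4.19 of the FPKM of HK1 and HK2 in 4-cell embryos, 75.7% ± 6.02 in IVF blastocysts and 82.7% ± 4.05 in IVF hatched blastocysts (SD, n = 3 each). In vivo hatched library 2 had an HK1 share of 90.3%, against 69.8% and 46.2% in in vivo blastocysts. PFKP was 87.3% ± 14.9 of the summed FPKM of PFKP, PFKL and PFKM in 4-cell embryos, 7.44% ± 2.73 in IVF blastocysts and 7.42% ± 2.27 in IVF hatched blastocysts. The liver-type PFKL made up 3.69% ± 1.89, 86.3% ± 0.327 and 87.8% ± 3.01 at these stages. PFKL had 3.43, 3.19 and 3.89 CPM in 4-cell embryos and 75.6 to 108 CPM in IVF blastocysts, a log2 fold change of 4.86 ± 0.35 (adjusted p = 2.88e-05, edgeR). ALDOA likewise was 7.57% ± 8.33 of the FPKM of ALDOA and ALDOC in 4-cell embryos, 88.0% ± 2.39 in IVF blastocysts and 94.8% ± 2.33 in IVF hatched blastocysts. ALDOC, the brain-type aldolase, fell by 2.18 ± 0.47 on the log2 scale in blastocysts (adjusted p = 0.00424) and by 3.44 ± 0.50 in hatched blastocysts (adjusted p = 0.000608). ENO1 made up over 99.9% of the FPKM of ENO1 and the neuronal enolase ENO2 in every library with FPKM.

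LDHA had less FPKM than LDHB in every library with FPKM. LDHB, the form typical of heart, is the symbol of 2 genes in the table, and their FPKM were added. LDHA made up 23.6% ± 17.6 of the FPKM of LDHA and LDHB in 4-cell embryos, 17.2% ± 2.98 in IVF blastocysts and 25.9% ± 7.84 in IVF hatched blastocysts. In vivo hatched library 2 had a share of 14.2%, against 4.98% and 5.45% in in vivo blastocysts, the lowest of all. The larger LDHB gene (102161427) averaged 1505 ± 385 CPM in IVF blastocysts and 1723 ± 182 CPM in in vivo blastocysts, and its log2 fold change between them was −0.22 ± 0.28 (adjusted p = 0.667, edgeR). How reads were divided between LDHB and an LDHB pseudogene (1.13 to 35.1 CPM) is not given, so LDHB values are uncertain.

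**Figure D3:**
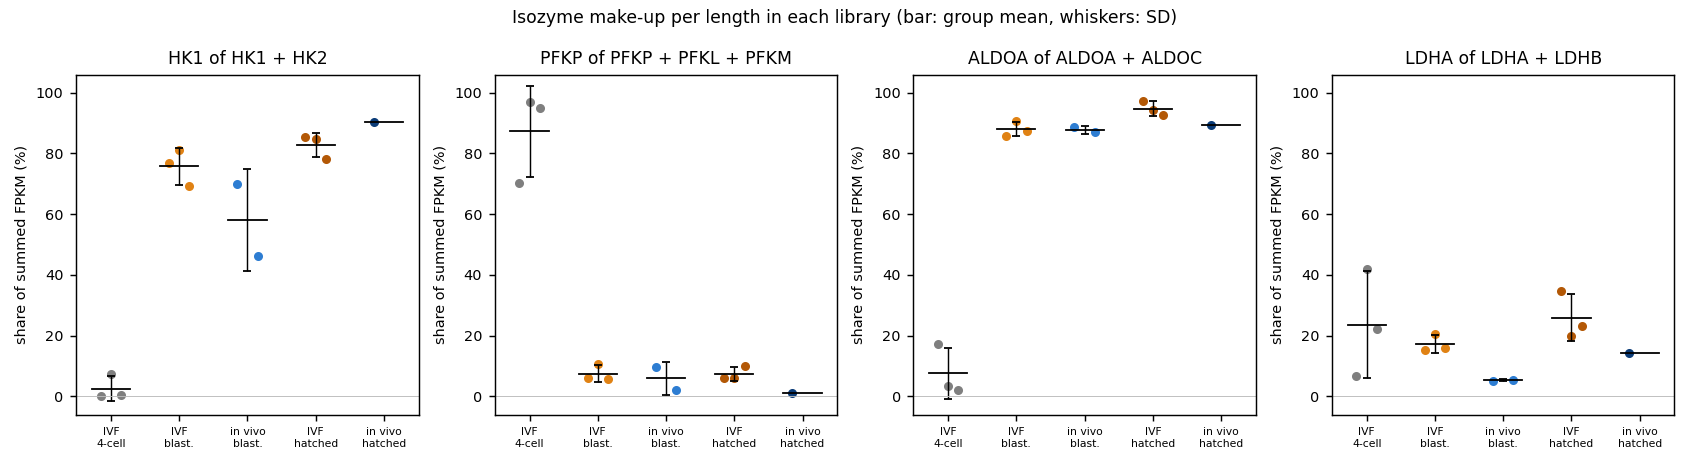
Share (%) of the summed FPKM of an isozyme family that HK1, PFKP, ALDOA and LDHA made up in each library (points), with the group mean (bar) and SD (whiskers); n = 3 for IVF groups, n = 2 for in vivo blastocysts and n = 1, with no SD, for in vivo hatched blastocysts. PFKP is 70.1% to 97.0% of its family in 4-cell embryos and at most 10.6% later.

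Per gene length, the order of the enzymes also differed between stages. At the 4-cell stage LDHA had the highest FPKM, 70.3 ± 48.8, and HK1 the lowest, 0.352 ± 0.582 (SD, n = 3). PFKP was the fourth of the 10 there, at 32.1 ± 19.1 FPKM, and ENO1 the seventh, at 13.2 ± 7.65 FPKM. In each of the 4 later groups, with in vivo hatched blastocysts as library 2 alone, ENO1 came first, TPI1 second and PFKP last. ENO1 had 691 ± 78.8 FPKM in IVF blastocysts and 766 ± 178 FPKM in in vivo blastocysts, while PFKP had 2.67 ± 1.57 and 0.653 ± 0.324 FPKM there. PKM was the third in in vivo hatched library 2 (367 FPKM) and the fifth or sixth in the other later groups.

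IVF blastocysts were compared with in vivo blastocysts to see how the origin of the embryo bears on the enzymes before hatching. HK1, PFKP and LDHA were higher in IVF blastocysts, and no enzyme was called lower. Over all 15528 genes tested, 6.09% were called higher and 4.74% lower, 10.8% in all. The median log2 fold change of the 10 was 0.46, against 0.05 over all genes tested.

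LDHA had 420, 369 and 376 CPM in IVF blastocysts, against 103 and 135 CPM in in vivo blastocysts. The groups were far apart, and the log2 fold change was 1.68 ± 0.26 (adjusted p = 0.00456, edgeR). It passed the test with each library left out in turn (adjusted p at most 0.0429) and failed when all 13 libraries shared 1 estimate of the spread (adjusted p = 0.322). HK1 had 35.1, 58.9 and 35.0 CPM in IVF blastocysts, against 7.82 and 15.1 CPM in in vivo blastocysts. Its log2 fold change was 1.91 ± 0.38 (adjusted p = 0.0124), and leaving out in vivo blastocyst library 1 gave 1.58 (adjusted p = 0.107). With all 13 libraries in the fit, the HK1 call was also lost (adjusted p = 0.619). PFKP had 4.99, 12.3 and 4.70 CPM in IVF blastocysts, against 2.42 and 1.16 CPM in in vivo blastocysts, a log2 fold change of 1.97 ± 0.58 (adjusted p = 0.0495). The call for PFKP lay at the threshold, and in 9 of 10 fits with 1 library left out it was lost (adjusted p up to 0.184).

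The remaining 7 enzymes did not pass the test between IVF and in vivo blastocysts. TPI1 (523 to 770 CPM in IVF, against 417 and 445 CPM in vivo) and PKM (217 to 392 CPM, against 188 and 196 CPM) had ranges that did not overlap, as did 43.9% of all genes tested. Their log2 fold changes were 0.64 ± 0.26 (adjusted p = 0.137, edgeR) and 0.54 ± 0.25 (adjusted p = 0.19). HK2, GPI, ALDOA, PGK1 and ENO1 overlapped between the groups, with log2 fold changes between −0.46 and 0.37. For HK2 the in vivo blastocysts differed, with 2.93 and 15.2 CPM. The log2 fold change was 1.84 without library 2 of that group and −0.33 without library 1.

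Hatching was compared within each origin, between separate libraries of hatched and unhatched blastocysts, whose age, animals, day and batch are not given. In vivo hatched blastocysts had more HK1, PKM and LDHA than in vivo blastocysts, and none of the 10 was called lower. Over all 15528 genes tested 6.96% were called higher and 7.39% lower. The median log2 fold change of the 10 was −0.10, against −0.01 over all genes tested.

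HK1 had 61.4 CPM (unnumbered library) and 125 CPM in in vivo hatched blastocysts, against 7.82 and 15.1 CPM in in vivo blastocysts. Its log2 fold change was 2.95 ± 0.42 (adjusted p = 0.00187, edgeR), the largest of the 10 at hatching. PKM (gene 100158154; chromosome 7, bases 60971807 to 61032780) had 686 and 926 CPM in in vivo hatched blastocysts, against 188 and 196 CPM in in vivo blastocysts, a log2 fold change of 1.98 ± 0.28 (adjusted p = 0.00187). LDHA had 438 and 268 CPM in in vivo hatched blastocysts, against 103 and 135 CPM before hatching, a log2 fold change of 1.51 ± 0.27 (adjusted p = 0.00508). Each of the 3 passed with any 1 library left out. With all 13 libraries in the fit PKM passed (adjusted p = 0.0374), while HK1 (adjusted p = 0.4) and LDHA (adjusted p = 0.336) did not. The LDHA call was also lost when only those 2 groups were fitted (adjusted p = 0.0526).

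ALDOA had 82.1 and 55.5 CPM in in vivo hatched blastocysts, against 89.8 and 126 CPM in in vivo blastocysts. The log2 fold change was −0.70 ± 0.25 (adjusted p = 0.084, edgeR), and −1.07 without the unnumbered library, which left 1 library in that group. TPI1 had 889 and 550 CPM in hatched embryos, against 417 and 445 CPM in in vivo blastocysts. Its log2 fold change was 0.67 ± 0.28 (adjusted p = 0.132, edgeR), and 1.03 without in vivo hatched library 2, which also left 1 library. Both genes had ranges apart, as had 53.5% of all genes tested in this comparison. HK2, GPI, PFKP, PGK1 and ENO1 overlapped, with log2 fold changes between −0.31 and −0.07.

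IVF hatched blastocysts differed from IVF blastocysts in none of the 10 enzymes, and in 7 of 15528 genes overall (0 higher, 7 lower, 0.0451%) by edgeR. At an unadjusted p under 0.05 there were 594 genes, and DESeq2 called 49. HK1 had 59.9, 42.2 and 46.3 CPM in IVF hatched blastocysts, against 35.1, 58.9 and 35.0 CPM in IVF blastocysts, a log2 fold change of 0.23 ± 0.32. PKM had 318, 324 and 339 CPM, against 217, 246 and 392 CPM, a log2 fold change of 0.23 ± 0.22. LDHA had 496, 368 and 416 CPM, against 420, 369 and 376 CPM, a log2 fold change of 0.17 ± 0.21. The groups overlapped for these 3 genes, while those of GPI (0.72 ± 0.23) and ENO1 (0.48 ± 0.22) did not, as for 10.6% of all genes tested.

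The difference between the hatching changes, IVF minus in vivo, was tested in the same fit. It was called for HK1, PKM and LDHA, negative in each, and for no other enzyme. Across the 10 enzymes the median difference was −0.02 on the log2 scale, with 5 above 0, against −0.0049 over all genes tested. Of all genes, 4.71% had a difference called (2.79% higher and 1.93% lower). On the log2 scale it was −2.72 ± 0.51 for HK1 (adjusted p = 0.0162, edgeR), −1.75 ± 0.35 for PKM (adjusted p = 0.0208) and −1.34 ± 0.34 for LDHA (adjusted p = 0.0484). For LDHA the call was lost in 9 of 10 fits with 1 library left out, with adjusted p up to 0.142. The HK1 call was lost without in vivo blastocyst library 1 (adjusted p = 0.0514), and the PKM call without that library (adjusted p = 0.0514) or in vivo hatched library 2 (adjusted p = 0.0569). With all 13 libraries in the fit none of the 3 passed (adjusted p from 0.252 to 0.74).

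**Figure D4:**
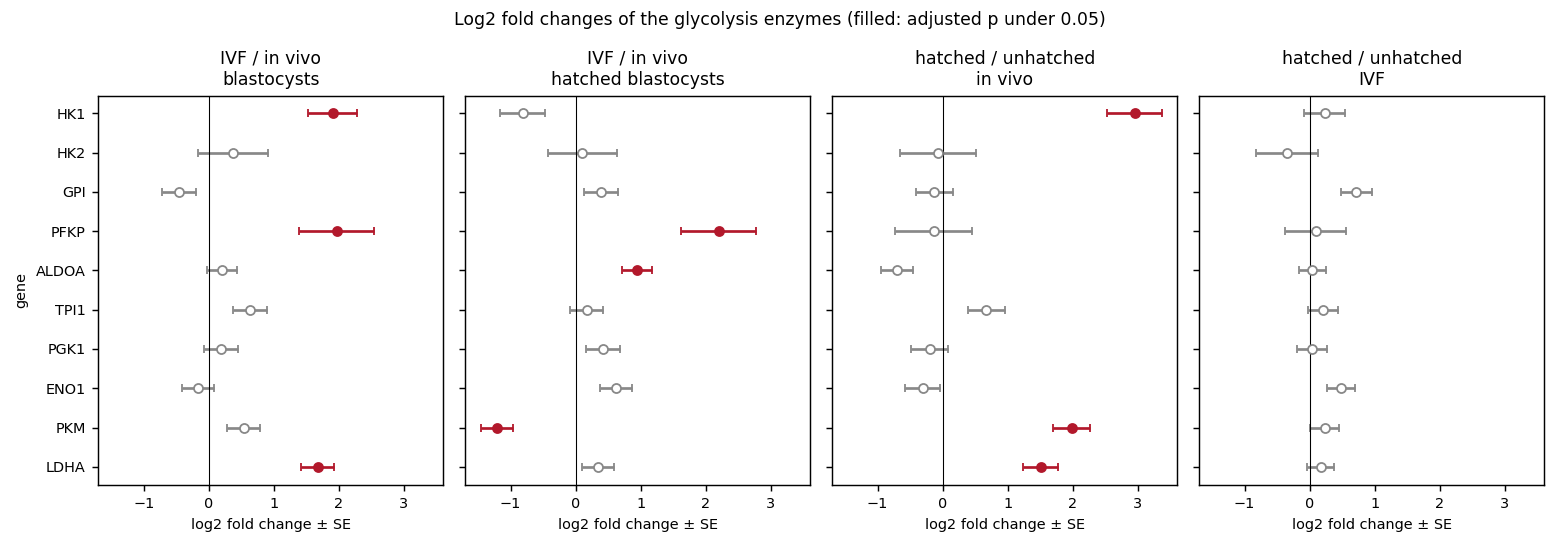
Log2 fold change ± SE of each of the 10 enzymes in the 4 comparisons among blastocysts and hatched blastocysts (filled red points: adjusted p under 0.05 in edgeR). HK1, PKM and LDHA rose at hatching in vivo (2.95, 1.98 and 1.51), while none of the 10 was called between IVF hatched and IVF blastocysts.

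Between hatched blastocysts, IVF embryos had more PFKP and ALDOA and less PKM than in vivo embryos. Over all 15528 genes tested 6.96% were called higher and 4.88% lower. The median log2 fold change of the 10 was 0.37, against 0.04 over all genes tested. PKM had 318, 324 and 339 CPM in IVF hatched blastocysts, against 686 and 926 CPM in vivo, and its log2 fold change was −1.21 ± 0.24 (adjusted p = 0.00995, edgeR). Without in vivo hatched library 2, which had the most PKM, the log2 fold change was −1.05 (adjusted p = 0.0798). ALDOA had 128, 124 and 126 CPM in IVF hatched blastocysts, against 82.1 and 55.5 CPM in vivo, a log2 fold change of 0.94 ± 0.24 (adjusted p = 0.025). PFKP had 6.71, 6.39 and 9.96 CPM, against 1.42 and 2.12 CPM in vivo, a log2 fold change of 2.20 ± 0.58 (adjusted p = 0.0319).

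These calls between hatched blastocysts rested on few libraries. Without in vivo hatched library 2 none of the 10 was called, with ALDOA at 0.64 (adjusted p = 0.221) and PFKP at 2.44 (adjusted p = 0.14). Without any single IVF hatched library, only PKM was called. Without the unnumbered library PFKP was not called (1.98, adjusted p = 0.126). With all 13 libraries in the fit none of the 10 was called (adjusted p of PKM 0.112, of PFKP 0.244 and of ALDOA 0.568). HK1 had 59.9, 42.2 and 46.3 CPM in IVF hatched blastocysts, against 61.4 and 125 CPM in vivo, a log2 fold change of −0.82 ± 0.35 (adjusted p = 0.156). LDHA overlapped between the hatched groups (log2 fold change 0.34 ± 0.24, adjusted p = 0.392). In all, 6 of the 10 enzymes had ranges apart between hatched blastocysts (HK1, PFKP, ALDOA, PGK1, ENO1 and PKM), as did 46.6% of all genes tested.

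Hypoblast markers were among the genes that rose at hatching in vivo, as HK1, PKM and LDHA did. Between IVF and in vivo blastocysts, where HK1 and LDHA were higher in IVF, 1 of the 9 hypoblast markers was higher and 1 lower. The hypoblast is the inner epithelium that becomes yolk sac, and its 9 listed markers summed to 376 to 932 CPM in IVF hatched blastocysts, 4336 and 10064 CPM in in vivo hatched blastocysts, 403 to 906 CPM in IVF blastocysts and 711 and 1619 CPM in in vivo blastocysts. Of the 9 markers, 6 rose at hatching in vivo and none fell, and 8 were lower in IVF than in in vivo hatched blastocysts. All 9 had counts in each of these groups. Over all genes tested, 6.96% were called higher and 7.39% lower at hatching in vivo. The shares were 6.96% and 4.88% between hatched blastocysts, and 6.09% and 4.74% between blastocysts. Of 8 trophectoderm markers tested, 0 were called higher and 2 lower at hatching in vivo, and 0 were called in the other 2 comparisons. Epiblast and inner cell mass markers (8 genes with 7 symbols) summed to 763 to 1038 CPM in IVF hatched and 358 and 560 CPM in in vivo hatched blastocysts, with 962 to 1444 CPM in IVF and 788 and 855 CPM in in vivo blastocysts. Most of these 8 genes went the other way from the sums. Between hatched blastocysts 2 of the 8 had a log2 fold change above 0 (median −1.70, 2 called higher in IVF and 1 lower). Between blastocysts 2 of the 8 were above 0 (median −1.28, 0 called higher in IVF and 1 lower). The part of cell-type make-up in the enzyme results was not tested.

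Ordered by mean level, neighbouring groups were often not separated by their ranges. HK1 was highest in in vivo hatched blastocysts, followed by IVF hatched and IVF blastocysts, which overlapped, then in vivo blastocysts and 4-cell embryos, each apart from the next. PKM had the same order, with the same pair overlapping. For LDHA, IVF hatched, IVF and in vivo hatched blastocysts overlapped in turn at the top, and 4-cell embryos overlapped in vivo blastocysts at the bottom. PFKP ran from 4-cell embryos through IVF hatched and IVF blastocysts, which overlapped, to in vivo blastocysts and in vivo hatched blastocysts, which also overlapped. For HK2 the 4-cell group was apart at the top, and for GPI, PGK1 and ENO1 it was apart at the bottom, with neighbours among the 4 later groups overlapping.

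Glucose transporters, which bring the substrate into the cell, were among the linked genes that changed. SLC2A1 (GLUT1), the widely expressed transporter, had 18.9, 6.40 and 8.82 CPM in 4-cell embryos, 260, 284 and 284 CPM in IVF blastocysts, and 247, 201 and 257 CPM in IVF hatched blastocysts. It rose by 4.90 ± 0.41 on the log2 scale in blastocysts over 4-cell embryos (adjusted p = 4.42e-05, edgeR). In vivo, SLC2A1 had 514 and 922 CPM in hatched blastocysts, against 190 and 350 CPM in blastocysts, a log2 fold change of 1.35 ± 0.29 (adjusted p = 0.0113). IVF hatched blastocysts had less SLC2A1 than in vivo hatched blastocysts (−1.52 ± 0.25, adjusted p = 0.00409), and the difference of hatching changes was −1.55 ± 0.37 (adjusted p = 0.038). Between IVF and in vivo blastocysts its log2 fold change was 0.03 ± 0.26 (adjusted p = 0.962).

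SLC16A1 (MCT1), which carries lactate and pyruvate across the membrane, was lowest in IVF hatched blastocysts. It had 11.7, 6.26 and 21.6 CPM there, against 133 and 421 CPM in in vivo hatched blastocysts, a log2 fold change of −4.31 ± 0.57 (adjusted p = 0.00114, edgeR). The other lactate carrier, SLC16A3 (MCT4), had at most 0.259 CPM in any library. SLC2A3 (GLUT3) had 107 and 346 CPM in in vivo hatched blastocysts, against 36.3 and 64.6 CPM in in vivo blastocysts (log2 fold change 2.08 ± 0.51, adjusted p = 0.0204). SLC2A12 (GLUT12) was higher in IVF than in in vivo hatched blastocysts (5.30 ± 0.70, adjusted p = 0.00114), with 29.3 to 54.7 CPM against 0.655 and 1.71 CPM. At hatching in vivo SLC2A12 fell (−3.71 ± 0.68, adjusted p = 0.00546, edgeR). SLC2A2 (GLUT2), the form typical of liver, averaged 76.6 ± 6.91 CPM in IVF blastocysts and 24.8 ± 7.83 CPM in in vivo blastocysts (1.61 ± 0.31, adjusted p = 0.0108). SLC5A1, a sodium-coupled glucose carrier, was lower in IVF blastocysts (−1.89 ± 0.39, adjusted p = 0.0146).

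**Figure D5:**
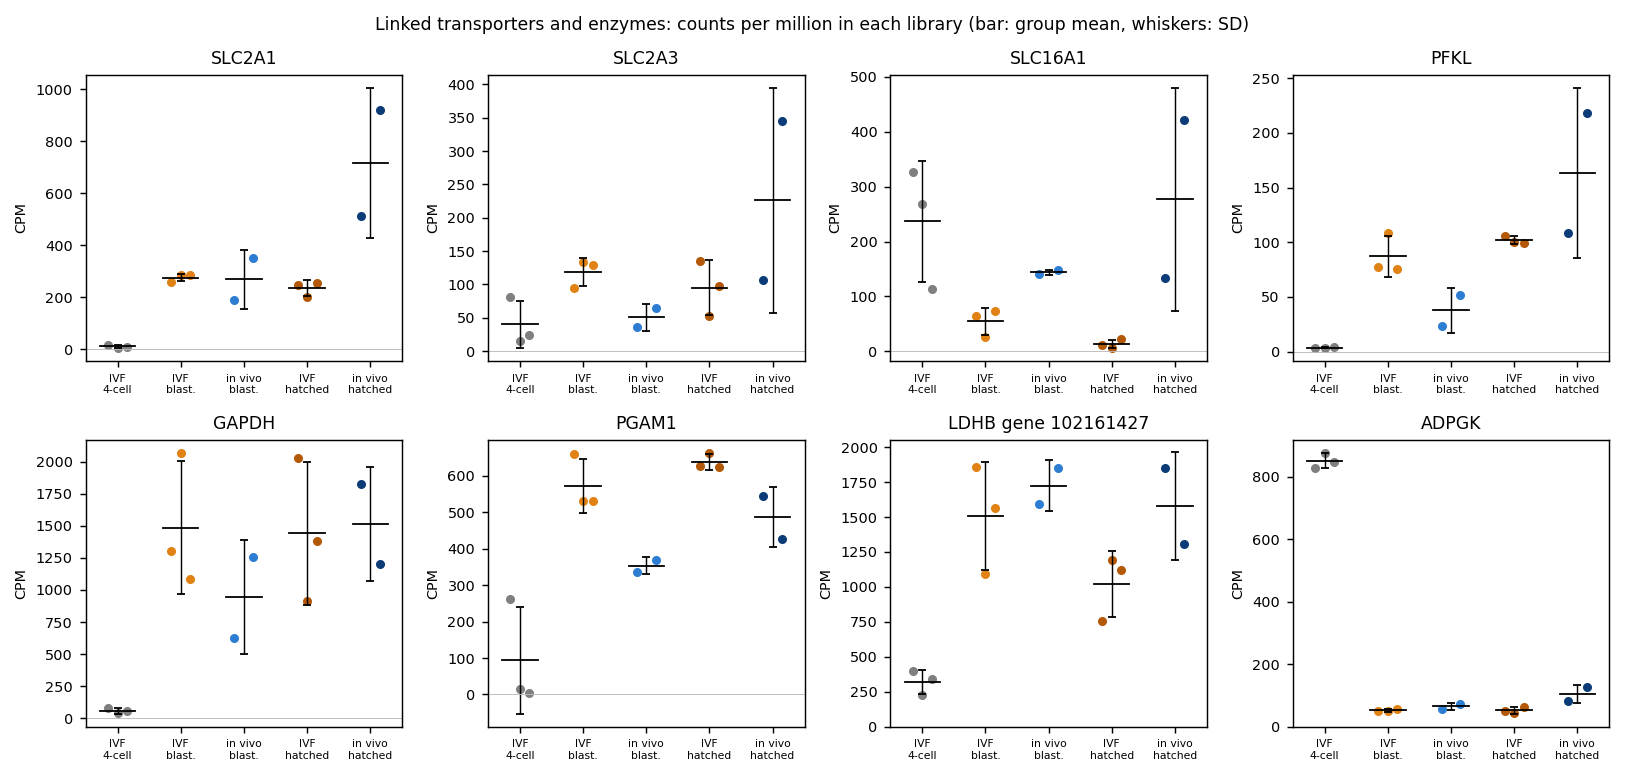
CPM of transporters and other enzymes linked to glycolysis in every library (points), with the group mean (bar) and SD (whiskers); n = 3 for IVF and n = 2 for in vivo groups. SLC2A1 and PFKL are highest in in vivo hatched blastocysts (718 and 164 CPM on average), and ADPGK is highest in 4-cell embryos (850 CPM).

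The other glycolytic enzymes and isozymes numbered 20 symbols, of which 17 genes were tested against 4-cell embryos. In blastocysts 7 of the 17 rose and 4 fell, beside 25.7% of all genes tested called higher and 30.6% lower. In hatched blastocysts 6 rose and 4 fell, beside 25.7% and 30.9% of all genes tested. GAPDH, which oxidises glyceraldehyde 3-phosphate, averaged 58.8 ± 22.7 CPM in 4-cell embryos, 1484 ± 519 CPM in IVF blastocysts and 1442 ± 560 CPM in IVF hatched blastocysts. Its log2 fold change in blastocysts was 4.93 ± 0.48 (adjusted p = 9.29e-05, edgeR). PGAM1, the phosphoglycerate mutase, had 263, 15.1 and 4.27 CPM in 4-cell embryos and 530 to 659 CPM in IVF blastocysts (3.06 ± 1.14, adjusted p = 0.0458). ENO3, the muscle enolase, had no count in 4-cell embryos and was at least 90.2-fold higher in blastocysts, against a floor of 3 counts per library. ADPGK, an ADP-dependent glucokinase, fell by 3.80 ± 0.29 on the log2 scale (adjusted p = 3.40e-05), with 827, 876 and 848 CPM in 4-cell embryos and 48.5 to 56.1 CPM in IVF blastocysts. LDHC, the testis-type lactate dehydrogenase, also fell (−2.96 ± 0.65, adjusted p = 0.00468).

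Between origins and at hatching, 19 of these enzymes were tested. PFKL was higher in IVF than in in vivo blastocysts, with 75.6 to 108 CPM against 23.2 and 52.2 CPM (1.21 ± 0.34, adjusted p = 0.0442, edgeR). It rose at hatching in vivo to 108 and 219 CPM (2.06 ± 0.37, adjusted p = 0.0055), and the difference of hatching changes was −1.79 ± 0.47 (adjusted p = 0.053). ENO3 was lower in blastocysts from IVF than in those from in vivo development (−1.90 ± 0.50, adjusted p = 0.0337). Between hatched blastocysts BPGM was higher (2.54 ± 0.52, adjusted p = 0.0108) and ADPGK lower in IVF embryos (−0.93 ± 0.22, adjusted p = 0.0214). GAPDH passed none of these tests.

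The routes that leave or bypass glycolysis were examined beside the 10 enzymes, against 10.8% of all genes called between blastocysts, 11.8% between hatched blastocysts and 14.3% at hatching in vivo. Of 7 genes for the entry of pyruvate into mitochondria, 3 had lower levels in IVF blastocysts than in vivo: PDHX, DLD and DLAT, all parts of the pyruvate dehydrogenase complex, with log2 fold changes of −1.04 ± 0.25, −0.87 ± 0.23 and −0.92 ± 0.26 (adjusted p between 0.0229 and 0.0441, edgeR). None of the 7 was called between hatched blastocysts or at hatching. Of 8 pentose phosphate genes, RPIA (−1.55 ± 0.24) and TALDO1 (−0.87 ± 0.17) were lower in IVF blastocysts, and both fell at hatching in vivo (RPIA by 2.03 ± 0.27, TALDO1 by 1.71 ± 0.20). Between hatched blastocysts TALDO1 was higher in IVF embryos (0.86 ± 0.18, adjusted p = 0.0113), and RPIA was not called (0.45 ± 0.24, adjusted p = 0.256). The difference of hatching changes was called for both, 2.003 ± 0.34 for RPIA (adjusted p = 0.0109) and 1.74 ± 0.25 for TALDO1 (adjusted p = 0.00582). Of 11 regulators of glycolytic flux tested, none was called between origins, and TIGAR, a fructose bisphosphatase, fell at hatching in vivo (−0.93 ± 0.24, adjusted p = 0.0269). Of 4 gluconeogenic genes tested, FBP1 was lower (−3.58 ± 0.93) and PC higher (1.11 ± 0.32) in IVF than in in vivo hatched blastocysts, with adjusted p of 0.0293 and 0.0428.

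Several of the 10 enzymes are textbook targets of the hypoxia-inducible factors, and the genes of that response were examined beside them. HIF1A itself averaged 50.3 ± 16.4 CPM in IVF blastocysts and 47.8 ± 28.7 CPM in in vivo blastocysts, and it was called in none of the 7 comparisons. Of 15 hypoxia targets outside glycolysis, none was higher and 2 were lower in IVF blastocysts than in vivo, VEGFA (−1.69 ± 0.32, adjusted p = 0.0101, edgeR) and STC2 (−2.72 ± 0.53, adjusted p = 0.011). Over all genes tested, 10.8% were called between blastocysts, 11.8% between hatched blastocysts and 14.3% at hatching in vivo. Between hatched blastocysts ADM (−1.46 ± 0.35) and P4HA1 (−2.06 ± 0.45) were lower in IVF embryos. At hatching in vivo ADM and ERO1A rose, and STC2 and BNIP3L fell. EGLN3, an oxygen-sensing prolyl hydroxylase, was higher in IVF than in in vivo hatched blastocysts (2.72 ± 0.37, adjusted p = 0.00139). Against 4-cell embryos 4 of the 15 targets rose and 4 fell in blastocysts, with BNIP3 up (4.73 ± 0.39) and CA9 down (−5.20 ± 0.55). In that comparison 56.3% of all genes tested were called.

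Over the 13 libraries, PGK1 lay nearest to the mean profile of the 10 enzymes, and PFKP and HK2 farthest. The distance is the root mean square difference of log2(CPM + 1), each gene centred on its own mean. Each of the 10 was itself part of the mean profile. The distance was 0.42 for PGK1, 0.56 for TPI1, 0.59 for PKM, 0.70 for LDHA and 0.81 for GPI. It was 0.94 for ALDOA, 1.31 for HK1, 1.68 for ENO1, 2.09 for HK2 and 2.67 for PFKP. Among 9016 other genes with a mean of at least 5 CPM, the nearest to the mean profile were COPZ1 (0.21), VPS35 (0.22), TLCD1 (0.22), CAB39L (0.23) and USP39 (0.25). COPZ1 averaged 56.6 CPM in 4-cell embryos, 298 CPM in IVF blastocysts, 214 CPM in in vivo blastocysts, 266 CPM in IVF hatched blastocysts and 275 CPM in in vivo hatched blastocysts.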

How the data were processed

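RNA was extracted from embryo pools with TRIzol, enriched on oligo(dT) and made into NEBNext Ultra libraries for paired Illumina reads, per the labels' protocols. The authors deposited 1 gene table on Sscrofa11.1. Its deposited counts are whole numbers without normalisation, and its deposited FPKM values are scaled to gene length and library size by the authors. Per the submitters' processing notes, the tools were HISAT2, RSEM, fastp 0.18.0, StringTie 1.3.1 and Bowtie2, with no role or order. Strand and the treatment of reads shared between similar genes are not given in the sources used here. Of 28232 gene IDs, 28208 matched the RefSeq gene table of the same build, from which positions come. The other 24, mitochondrial rRNA and tRNA genes, held 0.0171% to 0.112% of a library's counts. Of the values per library, 14 columns were left out: 13 of TPM and the FPKM column of in vivo hatched blastocysts numbered 1, which could not be tied to a count column by its name.

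The unnumbered in vivo hatched count column was matched to its group only. No pair of replicate libraries agreed within counting error (chi-square over its degrees of freedom was at least 72.5).

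edgeR 4.0.16 in R 4.3.3 gave the test of counts (quasi-likelihood, two-sided), with TMM factors, edgeR's filter on low counts, Benjamini-Hochberg adjustment over all genes tested and a call at adjusted p under 0.05. The 10 blastocyst and hatched libraries (15528 genes) and the 9 IVF libraries (16312 genes) were fitted separately. All 10 enzymes passed the filter in both. Only the fit of blastocyst and hatched libraries was tested on simulated data, and only for IVF against in vivo blastocysts. The simulation gave every gene the same spread, unlike real data. Alternatives were other scaling, no filter, DESeq2 1.42.0, other sets of libraries, each library left out, and a replicate block. Floors of 3 counts cover counting error only.

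The 10 enzymes, the linked lists and the marker lists were chosen with earlier results of these data known. From each linked list, up to 3 called genes per direction and comparison with the smallest p could be named, together with PFKL, PFKM, LDHB, ALDOC, ENO2, GAPDH, PGAM1, SLC2A1, SLC2A3, SLC16A1 and SLC16A3. The 5 nearest profiles were named by distance. HIF1A was named after its values were seen. Results for 2 genes of the linked lists are not reported here.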

Additional observations from a re-analysis of the deposited data

Results flagged for a closer look

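The hatching change of 3 enzymes differed between origins by the test of the difference itself (IVF minus in vivo, edgeR). It was −2.72 on the log2 scale for HK1 (adjusted p = 0.0162), −1.75 for PKM (adjusted p = 0.0208) and −1.34 for LDHA (adjusted p = 0.0484). All 3 calls were lost with all 13 libraries in the fit. The LDHA call was also lost when any 1 IVF blastocyst or IVF hatched library was left out, and in 9 of 10 such fits in all. Without in vivo blastocyst library 1 the HK1 and PKM calls were lost, and without in vivo hatched library 2 the PKM call. A replicate block lost the PKM and LDHA calls. HK1 had the hatching change 0.23 ± 0.32 in IVF and 2.95 ± 0.42 in vivo, PKM 0.23 ± 0.22 and 1.98 ± 0.28, and LDHA 0.17 ± 0.21 and 1.51 ± 0.27. IVF blastocysts had a higher level of HK1 and LDHA than in vivo blastocysts, and IVF hatched blastocysts a lower level of PKM than in vivo hatched blastocysts. The age of the in vivo embryos and the number of their hypoblast cells are not given, and their part in these differences was not tested.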

How the results depend on the processing

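Over 1158 values of the 10 enzymes under alternatives, 1071 kept their direction and side of the threshold, 54 lost a call, 5 gained one and 28 changed sign, none of them a called value. Of 32 called results, 23 kept their call with each library left out. DESeq2 gave HK1 no adjusted p against 4-cell embryos, which leaves 9 enzymes called there. With all libraries kept, HK1 gained a call between hatched blastocysts with no filter (−0.82, adjusted p = 0.0412, edgeR). ALDOA gained one at hatching in vivo with DESeq2 (−0.70, adjusted p = 0.0339). Where a cause is not named, it was not tested. Libraries alone in their group were assumed to vary like the others.

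For IVF against in vivo blastocysts the 1681 genes called became 2749 with no filter, 2875 with DESeq2 and 7 with all 13 libraries, where 0 enzymes were called. For hatched blastocysts the 1839 became 2850, 2916 and 92, again with 0 enzymes. At hatching in vivo the 2228 became 3469 with DESeq2, 101 with all 13 libraries (1 enzyme) and 757 with only the groups compared. At hatching in IVF the 7 became 162 with no filter, 49 with DESeq2 and 0 with all 13 libraries. For the difference the 732 became 1855, 1818 and 1, with 0 enzymes called with all 13 libraries. PGK1 at hatching in IVF turned to −0.0077 with scaling to library size.

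No pairing by replicate number was seen among the numbered libraries. Same-numbered deviations from the group mean correlated at −0.195 to 0.0261 over 19 pairs, and other deviations at −0.0988 to 0.195 over 37 pairs. In a group of 2 libraries the deviations mirror each other, so these correlations cannot exclude a pairing. With a replicate block, without the unnumbered library, 1028 genes were called between blastocysts, 1145 between hatched blastocysts, 1146 at hatching in vivo and 347 for the difference. Enzymes called were 2 in each of the first 3 and 1 for the difference: PFKP was lost between blastocysts (1.96, adjusted p = 0.128) and between hatched blastocysts (2.09, adjusted p = 0.226), LDHA at hatching in vivo (1.10, adjusted p = 0.053), and PKM (−1.84, adjusted p = 0.0527) and LDHA (−0.94, adjusted p = 0.209) in the difference. At hatching in vivo the block turned HK2 to 0.13 and PFKP to 0.0014.

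With 1 library left out, genes called ranged from 320 to 2022 between blastocysts (enzymes 1 to 3), 513 to 2074 between hatched blastocysts (0 to 3), 1064 to 2153 at hatching in vivo (3 to 4), 4 to 7 at hatching in IVF (0), 333 to 969 for the difference (0 to 2), 7622 to 11451 for blastocysts against 4-cell embryos (9 to 10) and 7511 to 11531 for hatched blastocysts (10). The lowest counts between blastocysts and for the enzymes in the difference came without in vivo blastocyst library 1, and between hatched blastocysts without in vivo hatched library 2. Signs turned in uncalled values only, and their log2 fold changes ranged as follows. Between blastocysts HK2 ranged from −0.33 to 1.84 and PGK1 from −0.094 to 0.54, and between hatched blastocysts HK2 from −0.26 to 0.57, TPI1 from −0.18 to 0.62 and LDHA from −0.019 to 0.80. At hatching in vivo HK2 ranged from −0.75 to 1.40, GPI from −0.30 to 0.11, PFKP from −0.63 to 0.65 and PGK1 from −0.48 to 0.18. At hatching in IVF the ranges were −0.14 to 0.70 for PFKP, −0.038 to 0.12 for ALDOA and −0.18 to 0.13 for PGK1. In the difference they were −1.74 to 0.41 for HK2, −0.55 to 0.83 for PFKP and −0.14 to 0.51 for PGK1.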
